A study of Mus musculus with 2 samples.

Results

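Messenger RNAs of heat shock proteins, DNAJ co-chaperones and associated factors were examined after treating RAW264.7 cells, a macrophage-like tumour line of the mouse, with IFN-gamma alone or together with adenosine. Members were taken by gene symbol: symbols starting with Hspa, Hspb, Hspd, Hspe, Hsph, Hsp90, Dnaja, Dnajb or Dnajc, plus Hsf1, Hsf2, Bag3 and Stip1, without 7 named chaperones of the endoplasmic reticulum (ER). Of 20380 probe sets that carried 1 gene symbol, 111 met this rule, and they represented 58 of 12393 genes. Hsf1 and Hsp90ab1 were not analysed here. The symbol rule gathers more than cytosolic proteins. By their known location, 9 of the 58 genes encode mitochondrial proteins, among them Hspa9, Hspd1 and Hspe1, and 4 encode proteins of the ER membrane. Hspbp1 and Hspb11 share letters with the small heat shock proteins but belong to other protein families.

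Both groups received IFN-gamma at 1000 U/ml for 4 h, a cytokine that activates macrophages, and the second group received adenosine at 300 uM together with it. Adenosine is a purine nucleoside sensed by receptors at the cell surface. Each treatment was measured on 1 Affymetrix array with RNA combined from 2 experiments, so neither array has a replicate and no difference below carries a test or p-value. Untreated cells were not analysed here.

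Heat shock proteins bind unfolded stretches of other proteins and release them through cycles of ATP binding. DNAJ proteins deliver clients to HSP70 and trigger its ATP hydrolysis through their J domain, exchange factors such as HSP110, HSPBP1 and the BAG proteins reset it, and STIP1 passes clients on to HSP90. The transcription factor HSF1 drives many of these genes through heat shock elements, which are inverted repeats of the letters GAA. In macrophages the same chaperones fold kinases and receptors of the inflammatory response and are induced by fever-range heat and oxidants.

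The heat shock elements of 6 members are printed as examples. The letters themselves use no expression value, but the 6 were picked by hand, without a fixed rule, from 14 members with a match. All are RefSeq promoter sequences of GRCm38.p6, written 5′ to 3′ on the strand of the gene, and capitals mark every match to GAANNTTC or TTCNNGAA, where N is any base. Hspe1 is shown at chr1:55088028-55088137 on the plus strand, from 120 to 11 bases before its start site. Dnajb6 is shown at chr5:29735819-29735928 on the plus strand, from 160 to 51 bases before a start site, and Hsph1 at chr5:149636286-149636395 on the minus strand, across its start site. Hspa1b (chr17:34959289-34959398, minus strand) and Dnaja1 (chr4:40722308-40722417, plus strand) are shown from 160 to 51 bases before theirs. Bag3 is shown only for a site 21 to 50 bases after its start, at chr7:128523603-128523632 on the plus strand.
Hspe1: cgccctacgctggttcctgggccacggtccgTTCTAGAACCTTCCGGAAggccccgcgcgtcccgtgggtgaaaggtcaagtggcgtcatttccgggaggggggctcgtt
Dnajb6: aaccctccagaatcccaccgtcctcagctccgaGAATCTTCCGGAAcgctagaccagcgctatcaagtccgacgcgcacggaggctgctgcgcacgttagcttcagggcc
Hsph1: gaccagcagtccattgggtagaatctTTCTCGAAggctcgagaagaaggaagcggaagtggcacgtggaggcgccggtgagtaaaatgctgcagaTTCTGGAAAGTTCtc
Hspa1b: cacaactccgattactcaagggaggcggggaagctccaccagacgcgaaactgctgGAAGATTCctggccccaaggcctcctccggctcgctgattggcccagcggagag
Dnaja1: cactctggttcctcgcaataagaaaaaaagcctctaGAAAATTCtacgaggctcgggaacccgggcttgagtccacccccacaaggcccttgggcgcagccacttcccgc
Bag3: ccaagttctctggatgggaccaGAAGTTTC
In Hspe1 the matches overlap into 1 run of 18 bases. Hspd1, the next protein-coding gene on that chromosome, is read from the opposite strand, and the same 18 bases, chr1:55088059-55088076, lie upstream of 1 of its start sites.

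The array with adenosine was dimmer as deposited, with a median signal of 15.2 against 45.9 over 22626 gene probe sets. Its signals were therefore multiplied by 2.82, and all signals of that array below are on this scale. This sets to 0 the median log2 ratio of probe sets at or above 24.5, the 50th percentile of deposited signals, on both arrays. Control transcripts spiked into both hybridizations differed less, with a median of -0.53 ± 0.19 on the log2 scale (SD, 18 control probe sets), so lower levels of most RNAs and a dimmer array cannot be told apart. A floor of 44.0, the 50th percentile of signals, was used as a convention, and a gene with both signals under it is called not measured. Ratios are log2 of IFN-gamma with adenosine over IFN-gamma alone, from the brightest probe set of each gene. As an error for a single ratio only the scatter between probe sets of a gene is at hand: an SD of 0.52 over 2375 genes, and of 0.49 over 19 members.

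Most chaperone genes lay within 2-fold between the arrays, as did most genes on the array. Of the 58 genes, 40 were measured (69%, against 55.0% of all genes on the array). Within 2-fold were 34 of these, and 5819 of all 6818 measured genes. The 34 include Dnajc17, which was placed there by the floor. At least 2-fold higher were 3 genes, Bag3, Dnajb1 and Dnajc9, against 4.52% of all 6818 measured genes and 7.5% of the members. At least 2-fold lower were another 3, Dnajc30, Dnajb4 and Hspb11 (7.5% of the members, against 10.1% of all measured genes). The median log2 ratio of the members was -0.06, with all measured genes at -0.08, and 16 members lay above 0 (40%, against 44.0% of all). Both shares were near the background. At 1.5-fold the counts were 5 higher (12.9% of all genes) and 7 lower (21.8%), and at 3-fold 1 higher, Bag3 (0.983%), and 1 lower, Dnajc30 (2.96%). Within the set, genes outside the DNAJ families were above 0 in 10 of 14 cases, with a median of 0.39, while DNAJ genes were below 0 in 20 of 26, with a median of -0.25. By the second brightest probe set 3 of 8 genes outside the DNAJ families and 6 of 14 DNAJ genes were above 0. As deposited 1 of 14 and 0 of 26 were, where 2.01% of all measured genes were higher with adenosine. Scaled on the spiked-in controls the counts were 2 of 14 and 2 of 26. They were 9 of 14 and 5 of 26 with loess, 9 of 14 and 9 of 25 with quantile, and 11 of 14 and 8 of 25 with trimmed mean scaling. The mean of all probe sets gave 9 of 14 and 8 of 26. Genes with strong signals tended to lie higher across the whole array on this scale, and the brighter 20 members had a median of -0.01 against -0.15 for the dimmer 20.

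**Figure D1:**
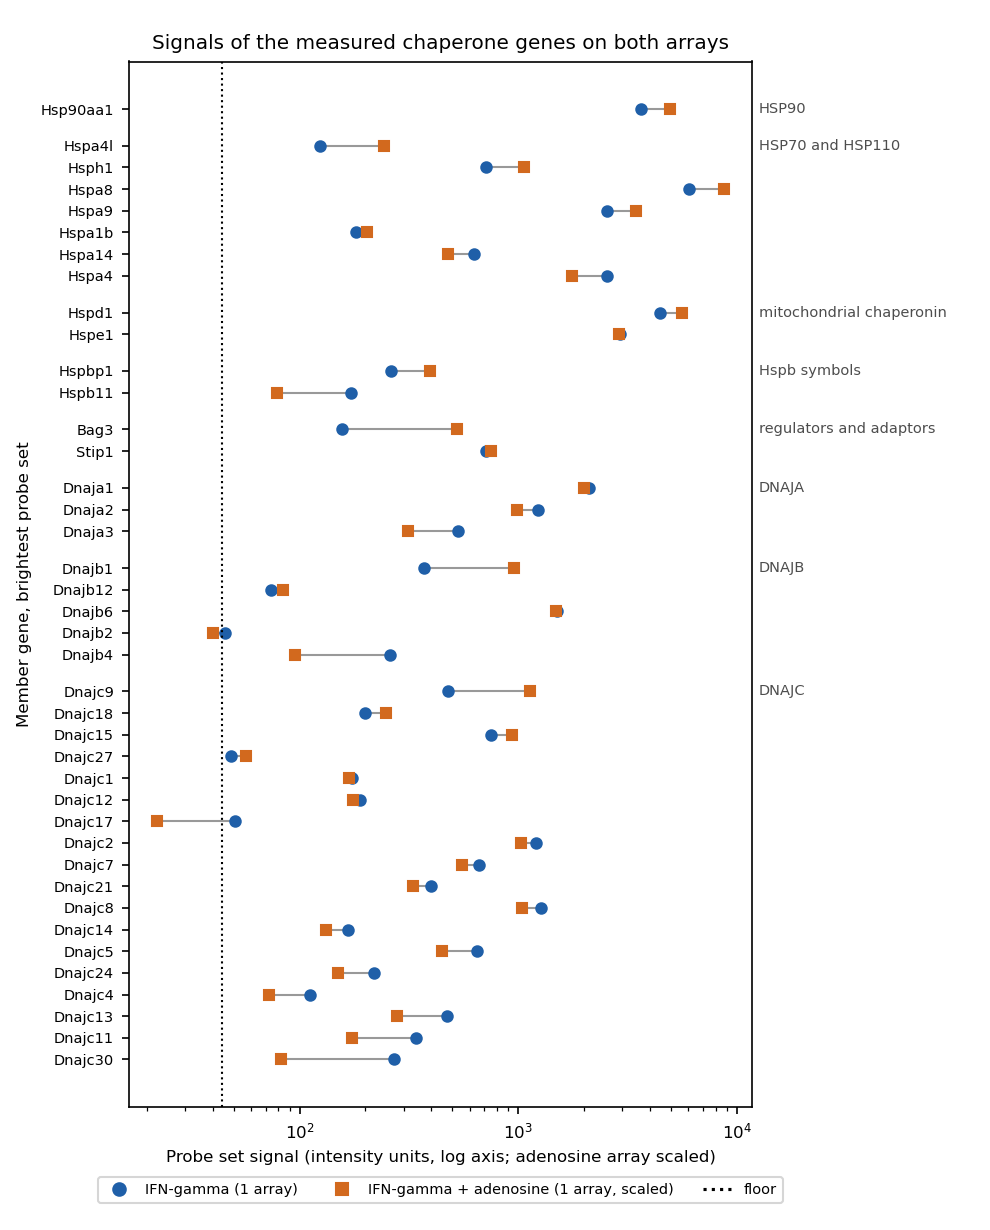
Signals of the 40 measured members on a log axis, in intensity units, by family; circles are the IFN-gamma array, squares the scaled array with adenosine, 1 array each, and the dotted line is the floor of 44.0. The widest gaps are those of Bag3 (157 and 525), Dnajc30 (271 and 82.0), Dnajb4 and Dnajb1, while Hspe1, Dnajb6 and Stip1 have nearly the same signal on both arrays.

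**Figure D2:**
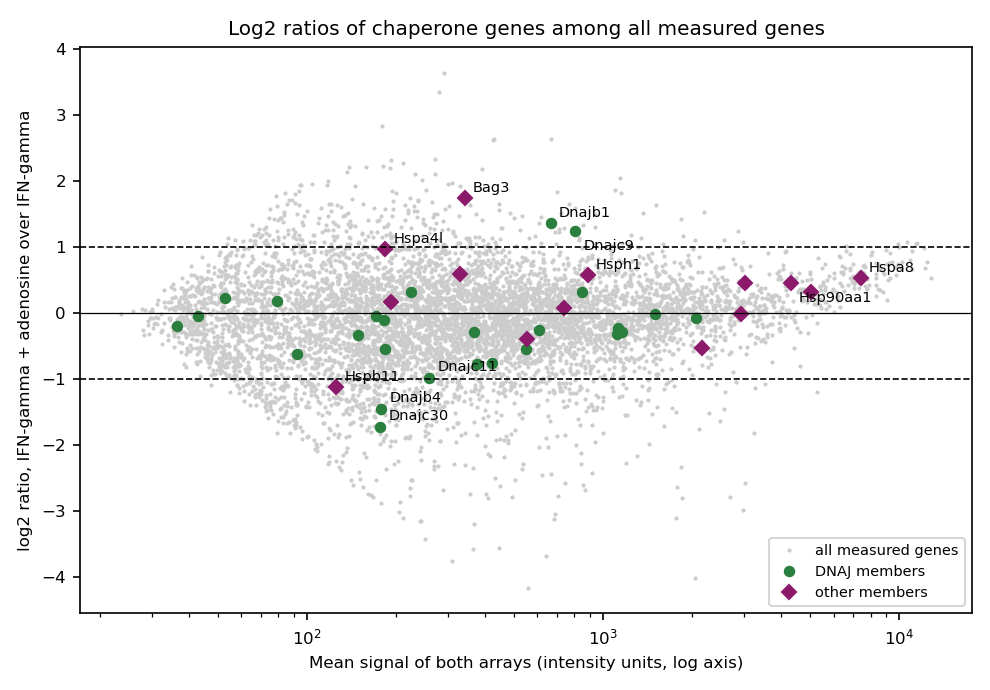
Log2 ratio of IFN-gamma with adenosine over IFN-gamma against the mean signal of both arrays (log axis) for 6818 measured genes in grey, 26 DNAJ members as circles and 14 other members as diamonds; dashed lines mark 2-fold. Members lie inside the cloud of all genes, 3 above the upper and 3 below the lower line, and Hspa8 lies at the bright end, where the cloud itself bends above 0.

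Hsp90aa1, the stress-inducible cytosolic HSP90, had a signal of 3633 with IFN-gamma and 4966 with adenosine, a log2 ratio of 0.45. The 200 measured genes closest to it in signal had a median of 0.23, and its other probe sets gave 0.35 and -0.07. The log2 ratio of 0.45 was thus below the probe set scatter over all genes (SD 0.52) but slightly above that of the brightest of 4 signal groups (0.42).

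HSP70 and HSP110 genes had 7 measured members of 11, none of them past 2-fold, with a median log2 ratio of 0.45. Above 0 were 5 of the 7, against 44.0% of all measured genes. That count was 1 when scaled on the spiked-in controls and 0 as deposited, where 2.01% of all measured genes were higher with adenosine. Hspa8, the constitutive HSP70 that also uncoats clathrin vesicles, went from 6065 to 8752 by its brightest probe set (log2 ratio 0.53). Its other 3 probe sets ran the opposite way, at -0.73, -0.58 and -0.95, and genes of like signal had a median of 0.42, so no direction can be given for Hspa8. Hspa1b, the classic heat-inducible HSP70, was at 181 and 203 (log2 ratio 0.17), with other probe sets at 0.15 and 0.55. Its nearly identical neighbour Hspa1a was below the floor on both arrays by its own probe set, at 12.6 and 6.77, and probes for such close copies may share targets.

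The HSP110 proteins exchange the nucleotide of HSP70 and help to pull apart aggregates. Hspa4l went from 124 to 243, a log2 ratio of 0.97, or 1.96-fold, just short of the upper threshold. The second probe set of Hspa4l gave 0.84. The nearest member past that threshold was Dnajc9, at 2.37-fold. Hsph1 went from 714 to 1060, a log2 ratio of 0.57, and its second probe set gave 0.61. Hspa4, the third of the kind, lay the other way, at 2542 and 1761 (log2 ratio -0.53), with other probe sets at -0.52 and -0.26. All 7 measured probe sets of these genes therefore had 1 sign within each gene, higher with adenosine for Hspa4l and Hsph1 and lower for Hspa4. In the values as deposited, Hspa4l and Hsph1 were lower with adenosine, at -0.52 and -0.93.

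Hspa14, which with Dnajc2 forms the complex that receives nascent chains at the ribosome, was at 628 and 477 (log2 ratio -0.40). Dnajc2 was at 1211 and 1034 (log2 ratio -0.23), but its other measured probe sets gave 0.50 and 0.85. Both were within 2-fold. Among mitochondrial members, Hspa9, the HSP70 of the matrix and its import motor, was at 2539 and 3473 (log2 ratio 0.45, other probe sets -0.20 and 0.09). The chaperonin genes Hspd1 and Hspe1, whose products form the folding chamber and its lid, share the heat shock element printed above. Hspd1 was at 4478 and 5601 (log2 ratio 0.32, with a median of 0.35 for genes of like signal). Hspe1 was at 2923 and 2904 (log2 ratio -0.01, second probe set -0.36). Genes of like signal to Hspe1 had a median of 0.08, so both chaperonin genes lay within the scatter of probe sets around genes of their own brightness.

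Of the 7 Hspb symbols, the small heat shock proteins proper, Hspb1, Hspb2, Hspb3, Hspb7 and Hspb8, were all below the floor on both arrays. These holdases are best known from muscle and epithelium. The 2 measured symbols encode other kinds of protein. Hspbp1, an exchange factor of HSP70, was at 262 and 393, a log2 ratio of 0.59. Hspb11, the intraflagellar transport subunit IFT25, went from 172 to 78.6 and was 2.18-fold lower, the nearest member past the lower threshold. It rests on a single measured probe set.

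Bag3, an exchange factor of HSP70 that sends damaged proteins to autophagy and is a well-known HSF1 target, was 3.35-fold higher with adenosine. Its signal was 157 with IFN-gamma and 525 with adenosine, a log2 ratio of 1.75, which placed it 40th from the top among 6818 measured genes. Of the 40 measured members it was the 1 whose signal was higher with adenosine even before scaling (156.6 and 186.3 as deposited), as it was for 2.01% of all measured genes. The difference is over 3 times the scatter of probe sets, but that scatter leaves out variation between samples. Bag3 also has 1 probe set on the array and no second reading. Stip1, the adaptor between HSP70 and HSP90, was at 716 and 754 (log2 ratio 0.08). Hsf2, a heat shock factor of development and differentiation, was below the floor, at 0.4 and 4.23.

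DNAJA proteins are the general-purpose partners of HSP70, and the 3 measured genes of 4 were all below 0 without reaching 2-fold. Dnaja1 was at 2111 and 2004 (log2 ratio -0.07, second probe set -0.35). Dnaja2 was at 1237 and 987 (log2 ratio -0.33, second probe set -0.40). Dnaja3, the mitochondrial member, was at 530 and 314 (log2 ratio -0.76), but its second probe set gave 0.03. Dnaja4 was below the floor.

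DNAJB genes had 5 measured members of 10, at both ends of the range. Dnajb1, the main heat-inducible HSP40, went from 371 to 958 by its brightest probe set and was 2.58-fold higher. Its second probe set, of similar brightness with IFN-gamma alone (414), was at 386 with adenosine, a log2 ratio of -0.10. The higher value of Dnajb1 is thus given by 1 of its 2 probe sets. Dnajb4, a close relative of Dnajb1, went from 260 to 95.3 and was 2.73-fold lower, whereas its second probe set gave 0.17 (126 and 142). Dnajb6, which keeps aggregation-prone proteins soluble, was at 1509 and 1496 (log2 ratio -0.01, other probe sets 0.16 and -0.21). Dnajb12, an ER membrane co-chaperone, was at 74.2 and 84.0 (log2 ratio 0.18), with a second probe set below the floor on the IFN-gamma array and at least 2.76-fold higher. Dnajb2 was close to the floor on both arrays.

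DNAJC proteins share little beyond the J domain, and most serve 1 process each. Of 20 genes, 18 were measured, 14 of them below 0, with a median log2 ratio of -0.27. Of all 6818 measured genes 3816 were below 0, with a median of -0.08. Dnajc9, a chaperone of histones H3 and H4, went from 476 to 1130 and was 2.37-fold higher, on 1 probe set. Dnajc15, of the mitochondrial import machinery, and Dnajc18, of the ER membrane, followed at 0.32 each. At the other end Dnajc30, a mitochondrial protein, went from 271 to 82.0 and was 3.31-fold lower, also on 1 probe set. Dnajc11, of the mitochondrial inner membrane organizing system, went from 342 to 173, a log2 ratio of -0.98, just short of 2-fold. Its second probe set pointed the same way, at least 2.93-fold lower. Dnajc13, an endosomal protein, was at 474 and 278 (log2 ratio -0.77). Dnajc8, of the spliceosome, was at 1273 and 1042 (log2 ratio -0.29). Dnajc5, the cysteine string protein of secretory vesicles, was at 651 and 447 (log2 ratio -0.54) by its brightest probe set, with 4 others at -0.80, 0.24, 1.17 and 1.02. All 22 DNAJ genes counted as within 2-fold lay between -0.98 and 0.32. Of these, Dnajc17 (50.5 and 22.3) is at -0.20 only because its signal with adenosine was raised to the floor. With the 33rd percentile as floor its log2 ratio was -1.18, so it cannot be placed within 2-fold. The 8 measured mitochondrial members of all families had a median of -0.31, the 4 of the ER membrane 0.07 and the other 28 -0.09.

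The 18 members not measured had signals between 0.2 and 24.5. They included the testis-linked genes Hspa1l, Hspa2, Dnajb3, Dnajb7, Dnajb8, Dnajb13 and Dnajc5b, the muscle-linked Hspb3 and Hspb7, and Hspa12b, Hspb2, Dnajb5 and Dnajc28. No ratio is given for them.

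Readings within a gene often disagreed. Of 22 members with at least 2 measured probe sets, 9 had probe sets on both sides of 0, 5 had some past 2-fold and some not, and 17 had all within 2-fold. No member had 2 or more probe sets that were all past 2-fold. Of the 6 genes past 2-fold, Dnajb1 and Dnajb4 had a second probe set within 2-fold and of the opposite sign, and Bag3, Dnajc9, Dnajc30 and Hspb11 had none. Counted by probe set, 6 of 74 were at least 2-fold higher (8.11%, against 5.88% of all 11042 measured probe sets with 1 symbol) and 4 were at least 2-fold lower (5.41%, against 9.51%).

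**Figure D3:**
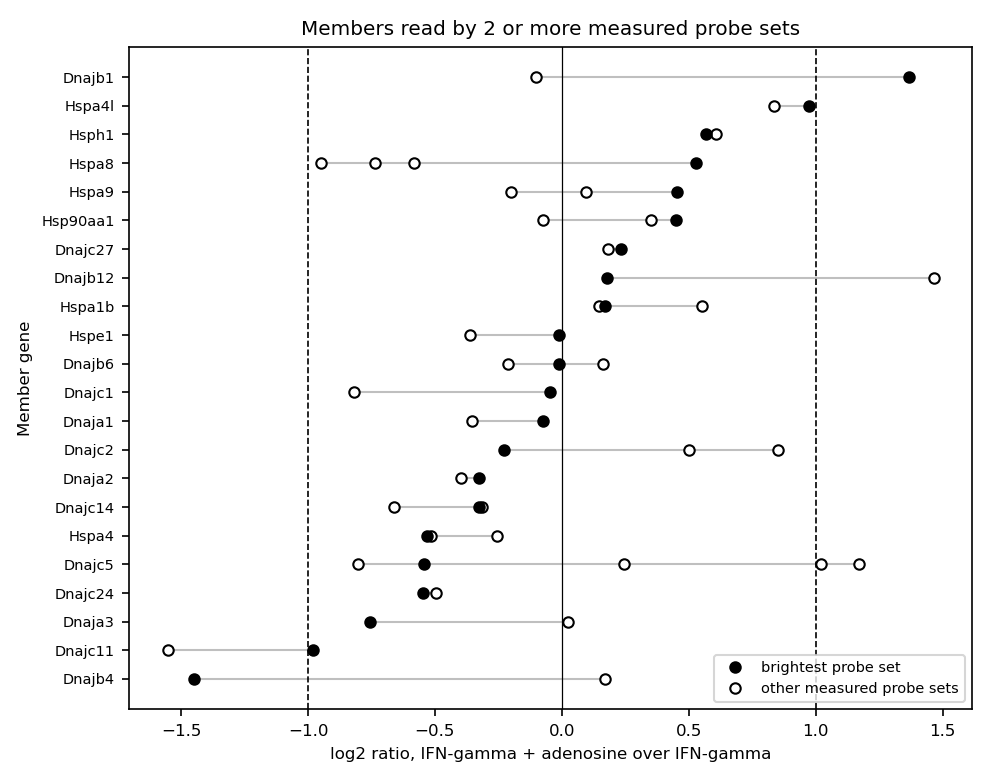
Log2 ratios of IFN-gamma with adenosine over IFN-gamma for the 22 members with 2 or more measured probe sets, 1 row a gene; the filled circle is the brightest probe set, open circles are the others, and dashed lines mark 2-fold. Dnajb1, Dnajb4, Hspa8 and Dnajc5 have readings on both sides of 0 that span 1.47, 1.62, 1.48 and 1.97, while those of Hsph1 and Hspa4l span 0.04 and 0.14.

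Promoter windows of 300 bases, from 250 before to 50 after a start site, were matched for 47 of the 58 members. Windows for Hspa8, Hspa9, Hsp90aa1, Hspb2, Dnajc2, Dnajc5, Dnajc5b, Dnajc11, Dnajc12, Dnajc18 and Dnajc30 were not used here. The pair of repeats, GAANNTTC or TTCNNGAA (each its own reverse complement), was found in 14 of 47 genes (29.8%, against 17.0% of 27025 genes and 15.1% of 32851 windows). These 14 were Bag3, Dnaja1, Dnaja4, Dnajb4, Dnajb6, Dnajc27, Hspa1a, Hspa1b, Hspb1, Hspb3, Hspb8, Hspd1, Hspe1 and Hsph1. The longer form of 3 repeats, GAANNTTC followed by any 2 bases and GAA, or TTCNNGAA followed by any 2 bases and TTC, is a pair of overlapping shorter matches. It was found in Dnajb6, Hspd1, Hspe1 and Hsph1, 4 of 47 genes (8.51%, against 0.662% of all genes and 0.603% of windows). A match describes letters and is no measure of binding.

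Log2 ratios of members with and without these letters overlapped. The 4 genes with the long form had log2 ratios of -0.01, 0.32, -0.01 and 0.57, none past 2-fold, in the order named. Of the 14 genes with a pair of repeats, 9 were measured, with a median of 0.17 and a range from -1.45 (Dnajb4) to 1.75 (Bag3), 1 of them at least 2-fold higher and 1 lower. The 22 measured genes without it had a median of -0.27, with 2 at least 2-fold higher and 1 lower. The difference between these medians has no test here. The cAMP response element TGACGTCA, which is its own reverse complement and is bound by CREB, was found in 1 member, Dnajc27 (2.13% of the 47, against 2.03% of all genes and 1.79% of windows). Dnajc27 was close to the floor, at 48.4 and 56.9. CCAAT, searched with its reverse complement ATTGG, was found in 19 of 47 genes (40.4%, against 41.1% of all genes and 37.4% of windows), and the 11 measured genes with it had a median of 0.08 against -0.12 for 20 without.

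Partners of these chaperones, taken from 8 lists, were similarly placed. HSP90 co-chaperones had 18 measured genes and none past 2-fold by the brightest probe set (median log2 ratio 0.04). The highest, Ttc4, was just short of it (143 and 286, second probe set 0.04), and the second probe set of Sugt1 gave 1.07 against -0.03 by its brightest. Fkbp4, a prolyl isomerase of steroid receptor complexes, was at 658 and 1172 (log2 ratio 0.83). The kinase-loading factor Cdc37 was at 0.68 by its brightest and -0.29 by its second probe set. Subunits of the cytosolic chaperonin TRiC and of prefoldin had 15 measured genes and none past 2-fold (median 0.17). Its subunit Cct2 was at 4307 and 5046 and Tcp1 at 3397 and 3413. HSP70 co-chaperones and exchange factors had 16 measured genes (median 0.15), 1 at least 2-fold higher and 1 lower. Bag4, which binds HSP70 and silences death receptors, was 2.02-fold higher (120 and 242, log2 ratio of the second probe set 1.67), and Bag2, an inhibitor of the ubiquitin ligase CHIP, was 2.91-fold lower (671 and 230). BAG genes thus gave both directions, and Bag4 would be lower with adenosine in the values as deposited (-0.48).

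Mitochondrial chaperones and proteases had 11 measured genes (median -0.04), and the membrane protease gene Oma1 was 3.63-fold lower (217 and 59.8). Second probe sets differed from the brightest in either direction: Htra2 was at -0.83 and -2.21, and Clpb at -0.55 and 0.51. ER chaperones that the rule leaves out were measured in 6 cases of 6, none past 2-fold (median 0.02), from Dnajc10 at -0.36 to Hspa5, the ER HSP70, at 0.31 (second probe set -0.36). A wider list of ER folding genes, which again holds Hspa5 and shares Sil1 and Hyou1 with the HSP70 co-chaperones, had 12 measured and none past 2-fold (median 0.26), with the disulfide isomerase P4hb at 0.75. A list of genes with heat shock elements or induced by heat had 14 measured genes (median -0.14), of which Chordc1, Ahsa1, Fkbp4 and Tcp1 also stand in the lists above. Rgs2 was 8.73-fold lower (1223 and 140, log2 ratio of the second probe set -3.32) and Atf3, a stress-induced transcription factor, 2.02-fold lower. Hmox1, the heme oxygenase gene, was at 367 and 414 (log2 ratio 0.17). Heat shock factors and regulators of HSF1 had 7 measured genes and none past 2-fold (median 0.14), with Hsbp1, an HSF1-binding protein, at 0.42 (second probe set -0.18). Over all measured genes the median was -0.08, with 4.52% at least 2-fold higher and 10.1% at least 2-fold lower. The lists were thus placed near the array as a whole.

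Markers were checked against the labelled cell type. All 16 macrophage markers found on the array were measured. On the scaled values 10 lay above 0 and 6 below. Lyz2 and Laptm5 were at least 2-fold higher with adenosine, although a second probe set of Laptm5 gave a log2 ratio of -0.41. The lowest were Aif1 (-0.95), Fcgr3 (-0.94), Mpeg1 (-0.83) and Ptprc (-0.82), short of 2-fold. None was measured of 16 markers of fibroblasts, endothelium and epithelium, 10 of granulocytes and mast cells, 6 of dendritic cells, 3 of erythroid cells and 11 of testis and muscle, whose summed signals lay between 8.8 and 121 on either array. Of 9 T and B cell markers only Zap70 was measured (45.9 and 97.0). Fewer cells and less RNA per cell cannot be told apart in such samples.

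Counts past 2-fold depended on the scaling. With trimmed mean, quantile and loess scaling, Bag3, Dnajb1 and Dnajc9 stayed at least 2-fold higher and Dnajc30, Dnajb4 and Hspb11 at least 2-fold lower, and Hspa4l joined the higher genes. Scaled on the spiked-in controls, no member was 2-fold higher and 21 of 40 were 2-fold lower (50.7% of all measured genes were). In the values as deposited 32 of 41 were 2-fold lower, against 78.8% of all, and none was 2-fold higher, against 0.141%. Bag3 kept a positive log2 ratio under all 6 scalings, from 0.25 as deposited upwards.

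**Figure D4:**
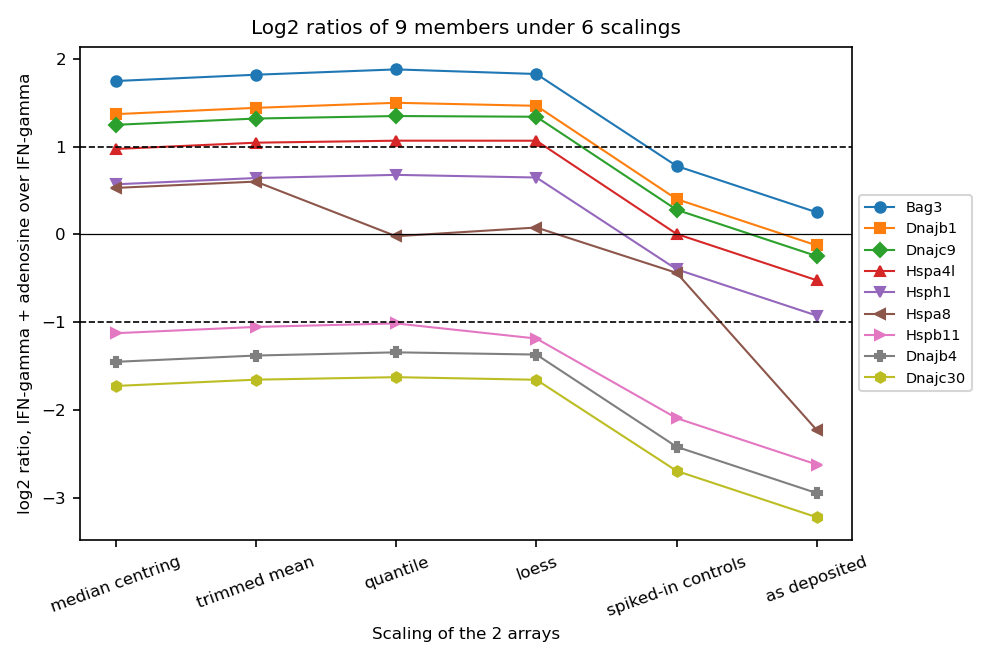
Log2 ratios of 9 members, each a line with its own marker, under 6 ways of scaling the 2 arrays; dashed lines mark 2-fold. Bag3 stays above 0 throughout, Dnajb1 and Dnajc9 lie at -0.13 and -0.25 as deposited, and Hspa8, for which another probe set is then the brightest, lies at -2.23.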

How the data were processed

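The deposited values are probe set intensity values on a linear scale, 1 per array; per the submitters' processing notes GCOS, the Affymetrix software, was used, while the sources used here do not state the signal algorithm or scaling. Of 22690 probe sets, 64 controls were set aside. Gene symbols came from the platform annotation, and all 58 member symbols matched RefSeq's current ones (GRCm38.p6) through their Entrez identifiers. Signals with adenosine were multiplied by 2.82, the factor that centres the log2 ratio over probe sets above 24.5 as deposited on both arrays. A dimmer signal below the floor of 44.0 was raised to it, and such folds are "at least". Calculations used Python 3.11.15, pandas 2.3.3 and statsmodels 0.14.6 and were tested on simulated data. The members and lists were chosen with earlier results of these data known. Named by rule were all measured genes outside the DNAJ families, DNAJ genes past 2-fold, the 3 highest and 3 lowest of each DNAJ family, the 3 brightest, and those next to the threshold. Dnajc2, Dnajc5, Dnajc17 and Dnajc27 and some partner genes were named after their values were seen. Precision is limited by there being 2 arrays.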

Additional observations from a re-analysis of the deposited data

How the results depend on the processing

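No paired analysis was possible because neither treatment has a replicate, for which reason leaving one out was not run either. Against 3 higher and 3 lower members and a median log2 ratio of -0.06, the values as deposited gave 0, 32 and -1.57, and spiked-in control scaling 0, 21 and -1.03. The 33rd percentile as floor gave 5 higher and 4 lower members of 51 measured (9.80% and 7.84%, against 6.53% and 10.3% of all genes measured there), and the 67th gave 0 lower of 35, where 6.48% of all measured genes were lower. A 1.5-fold threshold gave 5 higher and 7 lower members (12.9% and 21.8% of all genes), and a 3-fold threshold 1 and 1 (0.983% and 2.96%). Counts under trimmed mean, quantile and loess scaling, a pseudocount of 16, the mean of all probe sets, no shared probe sets, current symbols, and without mitochondrial and ER members stayed within 1.5 times those given, with medians from -0.18 to -0.00. The genes past 2-fold differed in part: with the mean of all probe sets Dnajb1 (0.63) and Dnajb4 (-0.64) no longer reached it and Dnajc11 (-1.27) did, and with the pseudocount Hspb11 (-0.99) no longer did. As deposited, 15 of the 16 members above 0 turned negative, Dnajb1 (-0.13) and Dnajc9 (-0.25) among them, and 12 did with spiked-in control scaling. Both scales lowered the array as a whole, with medians over all measured genes of -1.50 and -1.01. As deposited, 2.01% of all measured genes were higher with adenosine. Quantile and loess scaling turned the sign of 4 members each, and trimmed mean scaling and the mean of all probe sets of 3 each. By the second brightest probe set, an alternative chosen after seeing the data, 8 of 22 members changed sign: Dnajb1 (-0.10), Dnajb4 (0.17), Dnaja3, Dnajb6, Dnajc2, Hspa8, Hspa9 and Hsp90aa1. The cause was not tested. With 2 arrays, signal over background limits the dim members most: probe set scatter had an SD of 0.57 in the dimmest and 0.42 in the brightest genes.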

Other observations

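A probe set whose annotation names 2 symbols, Dnajc19 and its pseudogene Dnajc19-ps, stayed out of the counts. Dnajc19 encodes a mitochondrial import protein, and the probe set was at 571 with IFN-gamma and 597 with adenosine, a log2 ratio of 0.06.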
